A study of Danio rerio with 13 samples.

Results

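The long arm of zebrafish chromosome 4 was followed through the uniquely mapped crosslink sites of hnRNP A1 and of an IgG control. Members were all listed sites on chromosome 4 from 30 Mb on in the Zv9 assembly, on both strands. The minus-strand span from 61290001 to 61300000, which holds the strongest locus of the series, was left out. This gave 8680 of the 493063 sites in the 4 pooled tables. They split into 1586 hnRNP A1 sites before zygotic genome activation (preZGA), 5389 during it (ZGA), and 232 and 1473 IgG sites. The last site outside the rule was a minus-strand nucleotide at 29904177 with 1 cDNA, and the first inside was at 30036292 on the minus strand with 2 cDNAs at preZGA and 1 at ZGA.

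Wild-type embryos of the AB strain, kept under standard conditions, were irradiated at 254 nm in every group. The hnRNP A1 pull-down was made from embryos of 32 cells at preZGA (n = 3 libraries) and from the 1K cell stage, about 1000 cells, at ZGA (n = 4). The IgG pull-down was made at the same stages (n = 3 each). Whole embryos were lysed, so all cells of the embryo contribute. The tables are called uniquely mapped after the submitters' naming, which their headers do not spell out. Each group was deposited as 1 summed table of significant sites, so there is no spread between libraries and no test, and ratios are given with exact 95% intervals that cover counting error only. The hnRNP A1 tables listed 583691 cDNAs at preZGA and 480927 at ZGA, and IgG had 9606 and 20262.

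hnRNP A1 is an abundant RNA-binding protein that moves between nucleus and cytoplasm and is known for its part in splicing and in the processing of some microRNA precursors. In iCLIP the end of each cDNA marks the nucleotide that UV light linked to the protein. Until zygotic genome activation the embryo lives on RNA from the mother. The long arm of chromosome 4 is known as heterochromatic, late-replicating and rich in repeats, with many copies of zinc finger genes, genes of the NLR family of innate immunity, and genes for transfer RNAs, ribosomal 5S RNA and spliceosomal RNAs. Which of these the sites lie in was not analysed here, since a Zv9 annotation and genome were not used, so no sequence is shown.

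The arm carried far more hnRNP A1 signal in the ZGA table, and the IgG control carried more there as well. At preZGA it held 4815 hnRNP A1 cDNAs, or 0.825% of the table (0.802 to 0.849), and 31050 at ZGA, or 6.46% (6.39 to 6.53). The share ratio, a region's percentage of its table at ZGA divided by that at preZGA, was 7.83 (7.59 to 8.07). The IgG tables held 614 cDNAs on the arm at preZGA, 6.39% of the table (5.91 to 6.90), and 4756 at ZGA, 23.5% (22.9 to 24.1), a share ratio of 3.67 (3.38 to 4.00). In raw numbers the arm thus held 6.45-fold more hnRNP A1 cDNAs and 7.75-fold more IgG cDNAs at ZGA. The hnRNP A1 ratio was 4.86 when sites up to 15 nt from an IgG site of either stage were dropped. The arm had 1473 IgG sites at ZGA and 232 at preZGA, so this filter falls more on ZGA signal. The 4.86 is thus not a ratio cleared of background. The hnRNP A1 ratio was 4.06 with multi-mapping cDNAs added. It was 1.71 (1.69 to 1.73) with the left-out span put back, whose 60053 and 60294 cDNAs hardly differed. The IgG ratio depends on the control's total: without the plus-strand window of chromosome 1 at 2600001 to 2610000, which holds much of both IgG tables, it was 2.31 (2.13 to 2.52). It was 1.72 (1.58 to 1.87) with a total without the 10 leading windows of the genome, and 1.51 (1.44 to 1.58) with the span put back.

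The rest of the same chromosome did not share this. Before 30 Mb, chromosome 4 held 6701 hnRNP A1 cDNAs at the earlier stage and 5217 at the later one, giving a share ratio of 0.945 (0.911 to 0.980). The other nuclear sites, taken without the arm, the left-out span and the chromosome 1 window, had a ratio of 0.869 (0.865 to 0.873). Shares add up to a whole, so a higher share of one region lowers the others.

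The control came closer to hnRNP A1 on the arm than over the other nuclear sites, though not as close as in the chromosome 1 window. hnRNP A1 cDNAs exceeded IgG cDNAs 7.84-fold on the arm at preZGA (7.21 to 8.54) and 6.53-fold at ZGA (6.33 to 6.73). Over the other nuclear sites the excess was 378-fold (358 to 399) and 96.7-fold (93.6 to 99.9). The intervals of the arm and of those sites lie far apart at both stages. In the chromosome 1 window, which is not among them, hnRNP A1 exceeded IgG only 1.06-fold and 1.39-fold, and on the mitochondrial genome 167-fold and 18.5-fold. The arm's own excess moved with the counting. At preZGA it was 15.3 with multi-mapping cDNAs added and 27.3 with the left-out span put back, and at ZGA 12.1 with the span and 3.66 by numbers of sites. The IgG number was thus 12.8% of that of hnRNP A1 on the arm at preZGA and 15.3% at ZGA. All these are raw numbers, from 3 libraries of each pull-down at preZGA and from 4 hnRNP A1 and 3 IgG libraries at ZGA. The arm held 39.7% of all IgG sites at ZGA, against 2.69% of all hnRNP A1 sites. Whether the IgG signal and the hnRNP A1 signal on the arm have the same source was not tested.

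Both the number of sites and the cDNAs per site were higher at ZGA. Sites were 3.40-fold more numerous, and the mean went from 3.04 to 5.76 cDNAs per hnRNP A1 site. Neither is scaled for the number of libraries. The other nuclear sites stayed near 1.72 and 1.82 cDNAs per site. Sites with a single cDNA made up 60.0% of the arm's sites at preZGA and 45.6% at ZGA, and sites with at least 5 cDNAs made up 11.9% and 22.1%. The signal was therefore concentrated: 127 nucleotides, 8.01% of the arm's sites, held 50% of its preZGA cDNAs, and 258 nucleotides, 4.79%, held 50% at ZGA. Over the other nuclear sites it took 24.0% and 21.4% of the sites to hold as much.

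The strands differed in how far they changed. On the plus strand 622 sites with 1594 cDNAs at preZGA compare with 2551 sites and 14818 cDNAs at ZGA, giving a share ratio of 11.3 (10.7 to 11.9). On the minus strand 964 sites held 3221 cDNAs and later 2838 sites held 16232, a ratio of 6.12 (5.89 to 6.35). The minus strand's part of the arm thus went from 66.9% (65.5 to 68.2) to 52.3% (51.7 to 52.8). IgG showed the same order, with 68.4% (64.6 to 72.1) and 55.0% (53.6 to 56.4) on the minus strand. The left-out span, with 60053 and 60294 hnRNP A1 cDNAs, lies on the minus strand alone. These strand shares and ratios thus hold only for the arm without it.

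Along the arm the signal lay in a few stretches, each mostly on 1 strand at ZGA. In windows of 1 Mb per strand, the 5 leading windows held 43.5% of the arm's hnRNP A1 signal before activation and 50.5% during it. The minus strand from 45 to 46 Mb led at both stages, with 948 cDNAs and then 5222, a ratio of 6.68 (6.24 to 7.17). At preZGA it was followed on the minus strand by 49 to 50 Mb with 347 cDNAs, 52 to 53 Mb with 287, 44 to 45 Mb with 272 and 40 to 41 Mb with 242. At ZGA the second window was the plus strand from 40 to 41 Mb, which went from 162 to 3726 cDNAs, a ratio of 27.9 (23.9 to 32.9). Next came the minus strand from 52 to 53 Mb with 2295 cDNAs, the minus strand from 44 to 45 Mb with 2230, and the plus strand from 32 to 33 Mb with 2208. Of the 33 spans of 1 Mb, 26 had at least 75% of their ZGA cDNAs on 1 strand and 10 at least 90%. The spans were not counted so at preZGA. From 40 to 41 Mb the minus strand led at preZGA, with 242 against 162 cDNAs. The plus strand led there at ZGA, with 3726 against 444. Spans elsewhere in the genome were not counted in this way, so the strand bias is not shown to be particular to the arm.

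**Figure D1:**
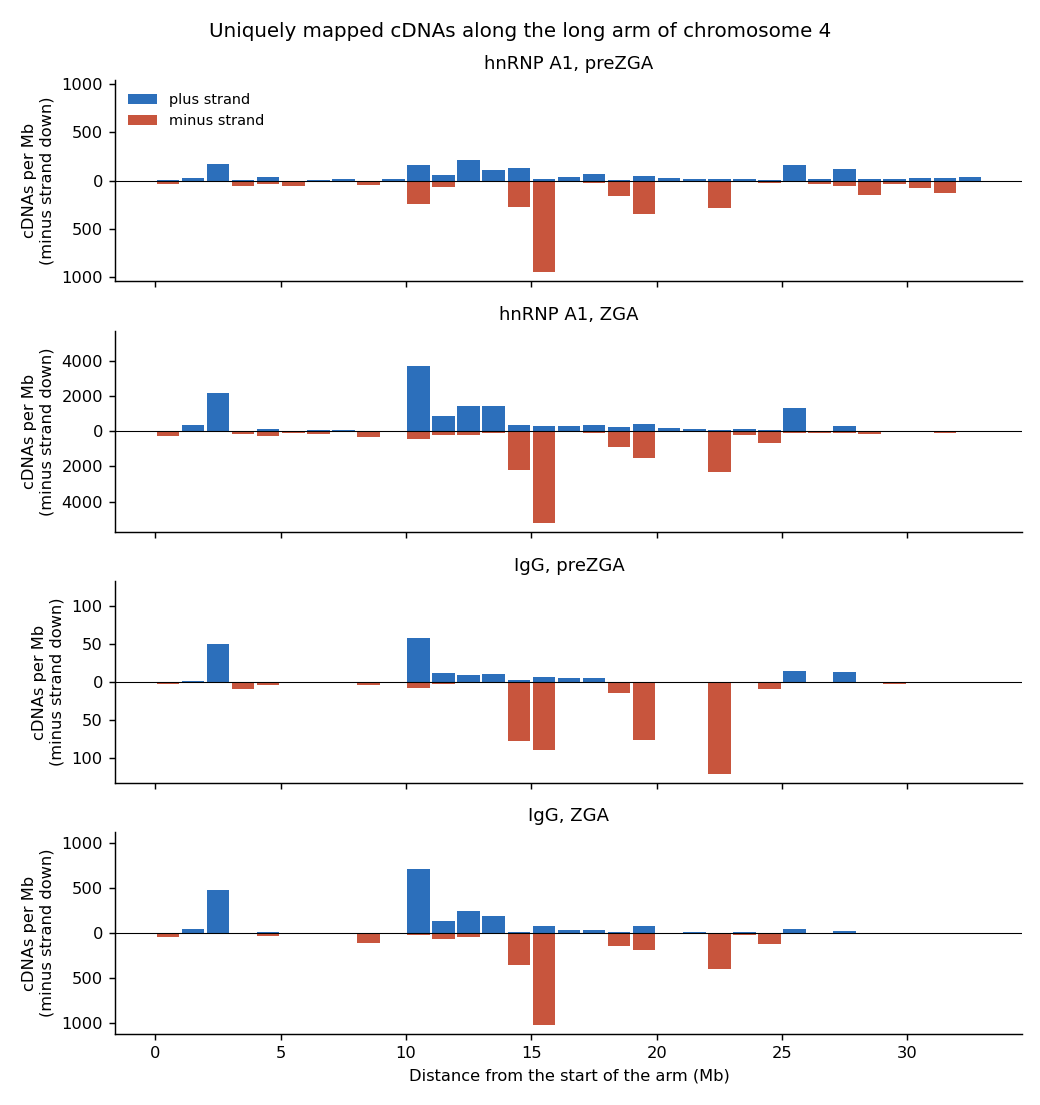
hnRNP A1 and IgG cDNAs per 1 Mb window (y axis, plus strand upward and minus strand downward, own scale in each panel) against the distance from the start of the arm at 30 Mb (x axis, Mb), 1 pooled table per panel and no error bars. The tallest ZGA bars of both pull-downs lie at the same places. Among them is 45 to 46 Mb on the minus strand, with 5222 hnRNP A1 and 1021 IgG cDNAs. Beyond 58 Mb of the chromosome the panels show almost no IgG. The left-out span, which lies there and holds IgG sites, is not drawn.

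A distal stretch differed from the remainder of the arm. The division at 58 Mb was chosen after the values were seen, so it is a description. Before it, the arm's hnRNP A1 cDNAs numbered 4296 and then 30594, a ratio of 8.64 (8.37 to 8.93), with 611 and 4756 IgG cDNAs. Beyond it, the 382 preZGA sites with 519 cDNAs stood against 326 ZGA sites with 456, a ratio of 1.07 (0.938 to 1.21). Sites with a single cDNA made up 76.7% and 78.8% of the sites there. IgG had 3 cDNAs there at preZGA and no significant site listed at ZGA. The left-out span lies within this stretch but is in none of these numbers. It was rich in IgG, whose tables list 1766 cDNAs in it before activation and 2812 during it. The low IgG thus holds only for the stretch without the span. Outside the span, the last IgG site of the arm at ZGA was at 57326295, while hnRNP A1 sites went on to 62049622.

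Windows of 10 kb on 1 strand gave the spread of listed sites along the arm. Of 510 such windows of the arm with any site, 458 had an hnRNP A1 site at ZGA and 210 at preZGA. Of these, 160 had one at both stages, 298 at ZGA alone with 3095 cDNAs in all, and 50 at preZGA alone with 159. A window listed at 1 stage only is not shown to be empty at the other. The same split was not counted over the genome, so it is not shown to be particular to the arm. Both strands had sites in 32 of the 478 spans of 10 kb with any site. Since few windows held many cDNAs, the 54 that reached 100 hnRNP A1 cDNAs when the stages were added carried 75.2% of the arm's cDNAs at preZGA and 85.1% at ZGA.

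Of those 54 windows, 50 had a share at least 2-fold higher at ZGA, 4 lay within 2-fold and none was 2-fold lower. Among all 1882 windows of the genome with as many cDNAs, 8.77% were higher and 15.2% lower by the same rule. The arm's median ratio was 12.4, the median of all 1882 windows 0.797. Windows were taken by their sum over both stages, so some passed through their ZGA cDNAs alone and had to be higher, and these counts are a description. With 1 table per group they are differences between pooled tables. A ratio of at least 8 was found in 62 windows of the genome, of which 33 lay on the arm. Counted by sites instead of cDNAs in the same 54 windows, 48 were at least 2-fold higher and none lower. Over the genome 149 of 1882 were higher and 154 lower when counted so. With sites up to 15 nt from IgG sites dropped, a filter that falls more on ZGA signal, only 10 windows reached the minimum. Of these, 7 were at least 2-fold higher, against 92 of 1759 over the genome.

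The window with the most hnRNP A1 cDNAs at ZGA was on the plus strand at 40090001 to 40100000. Its 3051 cDNAs all lay in a run of 49 nucleotides, from 40099851 to 40099899. The same run held 104 at preZGA. IgG had 49 cDNAs in it at preZGA and 577 at ZGA. Its strongest nucleotide, 40099866, was the same at both stages, with 41 and 508 cDNAs. The strongest IgG nucleotide was also 40099866 at preZGA and was 40099861 at ZGA, with 86 cDNAs.

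The minus strand near 45.6 to 45.7 Mb held 3 of the 4 leading ZGA windows. The window at 45690001 to 45700000 had 700 cDNAs at preZGA, the most of any window then, and 1841 at ZGA, a ratio of 3.19 (2.92 to 3.49). Its IgG cDNAs went from 15 to 401, or from 2.14% to 21.8% of the hnRNP A1 number. At 45590001 to 45600000 there were 124 and 1799 hnRNP A1 cDNAs with 46 and 326 IgG cDNAs. At 45580001 to 45590000 there were 73 and 1465 with 28 and 294 of IgG, a ratio of 24.4 (19.2 to 31.2). IgG in these last 2 windows was 37.1% and 38.4% of hnRNP A1 at preZGA and 18.1% and 20.1% at ZGA, so it was lower at ZGA there and higher at 45690001.

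The other leading ZGA windows included 1 that rested on a single nucleotide. On the plus strand at 55510001 to 55520000, 861 of 1234 cDNAs at ZGA lay at 55513158, which was also the strongest nucleotide at preZGA with 32 of 142. IgG cDNAs there were 15 and 42, or 10.6% and 3.40% of hnRNP A1. The plus strand at 32650001 went from 116 to 1067 cDNAs, that at 43570001 from 15 to 1010 and that at 32200001 from 32 to 831. The minus strand at 44610001 went from 124 to 801 and that at 52370001 from 176 to 689. Over the 10 leading ZGA windows the IgG percentage ran from 3.40% to 24.7% with a median of 18.5%. Of the 10 windows that led at each stage, 6 were the same.

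The preZGA order differed. The window second to 45690001 was on the minus strand at 40460001 to 40470000, where 4 nucleotides at each stage held 204 and then 160 cDNAs, a ratio of 0.952 (0.769 to 1.18). Nucleotide 40468563 alone held 125 and 98 of them, beside 2 IgG cDNAs at the earlier stage and none listed at the later. The third was on the minus strand at 49780001 with 200 and 492 cDNAs. After it came 52370001 minus and 55510001 plus, given above, and then the plus strand at 44130001 with 125 and 332. The plus strand at 57320001, with 109 and 245, was the last of the 10. The ratios at 49780001, 44130001 and 57320001 were 2.99, 3.22 and 2.73. Over the 10 leading preZGA windows, IgG came to between 0.980% and 54.5% of hnRNP A1.

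Among those of the 54 windows with the highest ratios, 3 lacked any listed hnRNP A1 site at preZGA, so no ratio is given. They held 192 cDNAs at ZGA on the minus strand at 42940001, 182 on the plus strand at 46860001 and 174 on the plus strand at 50430001. IgG had 0, 6 and 0 cDNAs in them at preZGA and 42, 34 and 5 at ZGA. The multi-mapping preZGA table of hnRNP A1 placed 6.23, 0.465 and 5.65 cDNAs there, so they are not shown to be empty at preZGA. The highest ratio that could be formed was 81.7 (49.3 to 147) at 43570001, plus strand, where 383 of 1010 ZGA cDNAs lay at 43573431. It was followed by 41990001 plus, with 5 and 319 cDNAs and a ratio of 77.4 (32.8 to 240), and 52360001 minus, with 15 and 656 and a ratio of 53.1 (31.9 to 95.4). In these 3 windows IgG had 9, 6 and 12 cDNAs at preZGA, beside 15, 5 and 15 of hnRNP A1, and 181, 67 and 145 at ZGA. The next ratios were 36.4 at 42120001 plus, 35.6 at 40090001 plus, 34.1 at 45490001 plus and 31.8 at 54520001 minus.

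Among the 54 windows, the lowest ratios whose interval left out 1 were still above 1. They began at 1.44 (1.00 to 2.08) on the minus strand at 58940001, with 58 and 69 cDNAs spread over 49 and 63 sites. On the minus strand at 35350001 the ratio was 1.47 (1.02 to 2.12), with 57 and 69 cDNAs over 12 and 15 sites. At 57150001 minus it was 2.13, with 53 and 93 cDNAs. All of these 3 windows lacked a listed IgG site at both stages. On the minus strand at 33740001, with 40 and 88 cDNAs, IgG had 9 cDNAs at preZGA and none listed at ZGA. The remaining 6 of the 10 lowest ran from 2.73 at 57320001 plus to 4.54 at 42020001 plus.

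**Figure D2:**
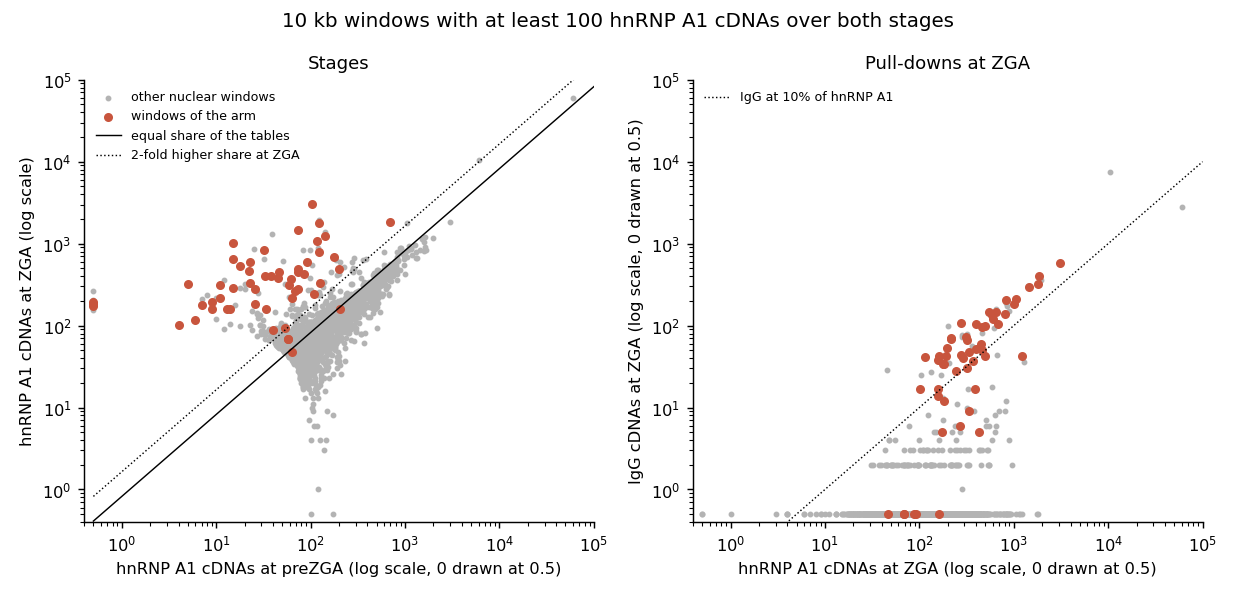
The 10 kb windows that reached 100 hnRNP A1 cDNAs with the stages added, 54 on the arm (red) and the others of the nuclear genome (grey, with the left-out span and the chromosome 1 window among them). The left panel sets cDNAs at ZGA (y axis) against preZGA (x axis) and the right panel IgG (y axis) against hnRNP A1 (x axis) at ZGA, all axes on a log scale with 0 drawn at 0.5, and 50 of the 54 red points lie above the 2-fold line on the left.

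Most of the 54 windows also held IgG sites. At ZGA 48 of them had one, against 10.3% of all 1882. At preZGA 42 had one. The preZGA share over all windows was not counted, so the 42 are not shown to be particular to the arm. The most IgG cDNAs at preZGA lay on the minus strand at 52370001, with 96 beside 176 of hnRNP A1, and at 49790001, with 59 beside 45. At ZGA these windows had 104 and 17 IgG cDNAs beside 689 and 386. In 37 of the 54 the IgG cDNAs at ZGA came to at least 10% of the hnRNP A1 cDNAs, against 3.13% of all windows. Over the 54, IgG and hnRNP A1 cDNAs at ZGA had a rank correlation of 0.808, and at preZGA of 0.480, across windows that share their tables, mapping and sequence and are not independent.

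Windows without a listed IgG site also had more hnRNP A1 cDNAs at ZGA. Since IgG sites were listed mostly where hnRNP A1 was high at ZGA, the division itself sends windows low at ZGA to this group, and the 2 ratios that follow are not a comparison of like windows. In the 427 windows of the arm with no IgG site listed at either stage, hnRNP A1 went from 1323 to 3613 cDNAs, a share ratio of 3.31 (3.11 to 3.53). In the 83 others it went from 3492 to 27437, a ratio of 9.54 (9.21 to 9.88). Before 58 Mb the windows without IgG had a ratio of 4.77 (4.41 to 5.16), from 804 to 3157 cDNAs. These windows were weak, with a median of 4 hnRNP A1 cDNAs at ZGA and at most 93, against a median of 174 in windows with IgG. At the arm's mean of 15.3% a window with 4 hnRNP A1 cDNAs would hold less than 1 IgG cDNA, so a missing IgG site there is not shown to be a lack of background. The leading ones were 57150001, 58940001, 35350001 and 60270001, all on the minus strand. The last of these had 63 cDNAs at preZGA and 47 at ZGA, a ratio of 0.905 (0.607 to 1.34). The other 6 of the 10 leading windows without IgG had ratios from 1.30 at 62040001 plus to 4.86 at 30540001 minus.

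Crosslinked nucleotides of the arm recurred between the stages and between the pull-downs. Of the 1586 preZGA sites, 960 were listed on the same nucleotide and strand at ZGA, or 60.5% (58.1 to 63.0), with 83.4% of the preZGA cDNAs. Over the other nuclear sites the share was 24.8% (24.6 to 24.9). The arm's preZGA sites held 3.04 cDNAs each against 1.72 there. Of its preZGA sites with at least 5 cDNAs, 91.0% had at least 5 at ZGA too. The 2 shares are thus not matched for cDNAs per site. Read from ZGA, the same 960 were 17.8% (16.8 to 18.9) of the arm's sites, against 36.5% (36.3 to 36.7) elsewhere. On the arm the share of preZGA nucleotides listed again was 35.6% (32.4 to 38.9) once sites up to 15 nt from IgG sites were dropped. Shared nucleotides held 17.8 cDNAs each at ZGA, the others 3.16.

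IgG sites fell on hnRNP A1 sites in most cases. At ZGA 1323 of the 1473 IgG sites on the arm, or 89.8% (88.2 to 91.3), were hnRNP A1 sites, against 66.1% (63.6 to 68.5) over the other nuclear sites. At preZGA the shares were 67.2% (60.8 to 73.2) and 37.9% (34.6 to 41.3). The 1323 nucleotides were 24.5% of the arm's hnRNP A1 sites at ZGA and carried 68.6% of its cDNAs. Elsewhere 0.503% of hnRNP A1 sites with 5.60% of cDNAs lay on an IgG site. Within 15 nt of an IgG site lay 81.2% of the arm's ZGA cDNAs of hnRNP A1 and 56.8% of its preZGA cDNAs. Of the arm's preZGA IgG sites, 73.7% were listed again in IgG at ZGA, against 14.8% elsewhere. The arm and the other sites are not matched for cDNAs in any of these shares. The arm's preZGA IgG sites held 2.65 cDNAs each against 1.54 elsewhere, and its ZGA hnRNP A1 sites 5.76 against 1.82. IgG cDNAs were 7.75-fold more at ZGA on the arm and 2.80-fold more elsewhere.

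Sites of the arm formed short blocks. Sites of all 4 tables no more than 15 nt apart were joined, which gave 824 blocks on the arm, and 194 of them held at least 20 hnRNP A1 cDNAs. These 194 covered 6352 nucleotides in all, and yet carried 85.8% of the arm's preZGA signal of hnRNP A1 and 90.8% of its ZGA signal. Their median length was 29 nt, with 61 nt at the 90th percentile and 107 nt at most. The 8746 blocks of the other nuclear sites had a median of 42 nt, a 90th percentile of 119 nt and a maximum of 984 nt. With at least 100 cDNAs, the 79 blocks of the arm had a median of 41 nt and a 90th percentile of 66.2 nt, against 85.5 and 270 nt in 1374 others. At this minimum of 100 cDNAs the median length elsewhere thus lay above the 90th percentile of the arm. At the minimum of 20 it did not, with 42 nt against 61 nt.

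**Figure D3:**
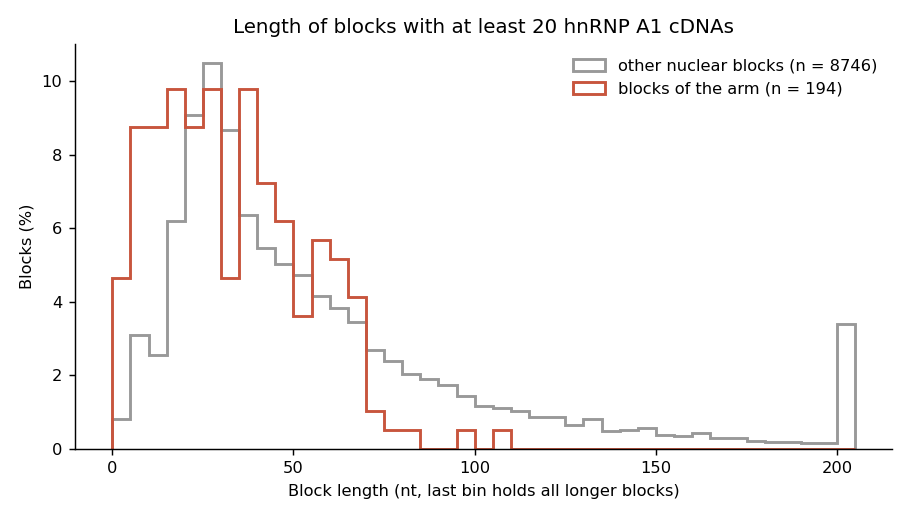
Length in nt (x axis) of blocks of joined sites with at least 20 hnRNP A1 cDNAs, as a percentage of blocks (y axis), for 194 blocks of the arm (red) and 8746 of the other nuclear sites (grey). The red line stops at 107 nt while the grey line runs on, with all blocks over 200 nt in its last bin.

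Of the 194 blocks, 168 had a ZGA share at least 2-fold higher and 3 one at least 2-fold lower, against 14.4% and 26.2% of the 9011 blocks of the genome. In 48 of the 194 no hnRNP A1 site was listed at preZGA, though 4 of these had IgG sites then, and such blocks reached the minimum through ZGA alone and had to come out higher. At ZGA 118 of the 194 contained IgG sites, or 60.8% (53.6 to 67.7), where 3.61% of all blocks had one. The 70 blocks with no IgG site at either stage had a median ratio of 3.96, and 48 of them were at least 2-fold higher. Blocks without a preZGA hnRNP A1 site were among these too. They had to count as higher and were ranked above all others for the median, so both values lean upward. Blocks without IgG over the genome were not counted in this way. Beyond 58 Mb, with the left-out span not counted, there were 9 blocks, 2 of them at least 2-fold higher, and none with an IgG site. The 10 blocks with the most ZGA cDNAs held 31.2% of the arm's ZGA cDNAs.

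Inside the blocks the strongest nucleotide was often the same at both stages. Of 87 arm blocks with at least 10 hnRNP A1 cDNAs at each stage, 54 had the same strongest nucleotide, or 62.1% (51.0 to 72.3), against 17.4% (16.5 to 18.5) of 5670 other nuclear blocks, which were longer. hnRNP A1 and IgG at ZGA shared it in 40 of 76 blocks, or 52.6% (40.8 to 64.2), and in 28 of 45 blocks elsewhere, or 62.2% (46.5 to 76.2), so the intervals overlap. The strongest nucleotide at ZGA held a median of 27.5% of a block's cDNAs over the 194 blocks. Over the 7763 other nuclear blocks that had one at ZGA it held 18.2%, with block lengths not matched. It lay in the first of 3 equal parts counted from the 5′ end in 70 of the 194, or 36.1% (29.3 to 43.3), and in the last part in 33.5%, while 22.2% and 38.4% were found elsewhere. Among blocks with at least 100 cDNAs the first part held it in 39 of 79, or 49.4% (37.9 to 60.9), against 21.9% (19.7 to 24.2) elsewhere.

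The 6 leading blocks differed in shape. That at 40099851 to 40099899, described above, was strongest at its nucleotide 16 at both stages, counted from the 5′ end. The block at 45698312 to 45698364 on the minus strand held 683 cDNAs at preZGA and 1192 at ZGA spread over 49 and 52 of its 53 nucleotides, with its strongest nucleotide at 45698333 and then at 45698317. The block at 55513130 to 55513168 on the plus strand, with 50 and 1012 cDNAs, had 85.1% of its ZGA cDNAs on 1 nucleotide. On the minus strand at 48915944 to 48915978, with 92 and 594 cDNAs, 55 of the preZGA cDNAs lay at 48915944, whereas the strongest at ZGA was 48915964 with 119. The block at 45582321 to 45582386 had 44 and 828 cDNAs and that at 52365823 to 52365862 had 15 and 656, both on the minus strand. In the first of these the strongest nucleotide moved from 45582383, with only 9 cDNAs at preZGA, to 45582354, with 190 at ZGA.

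**Figure D4:**
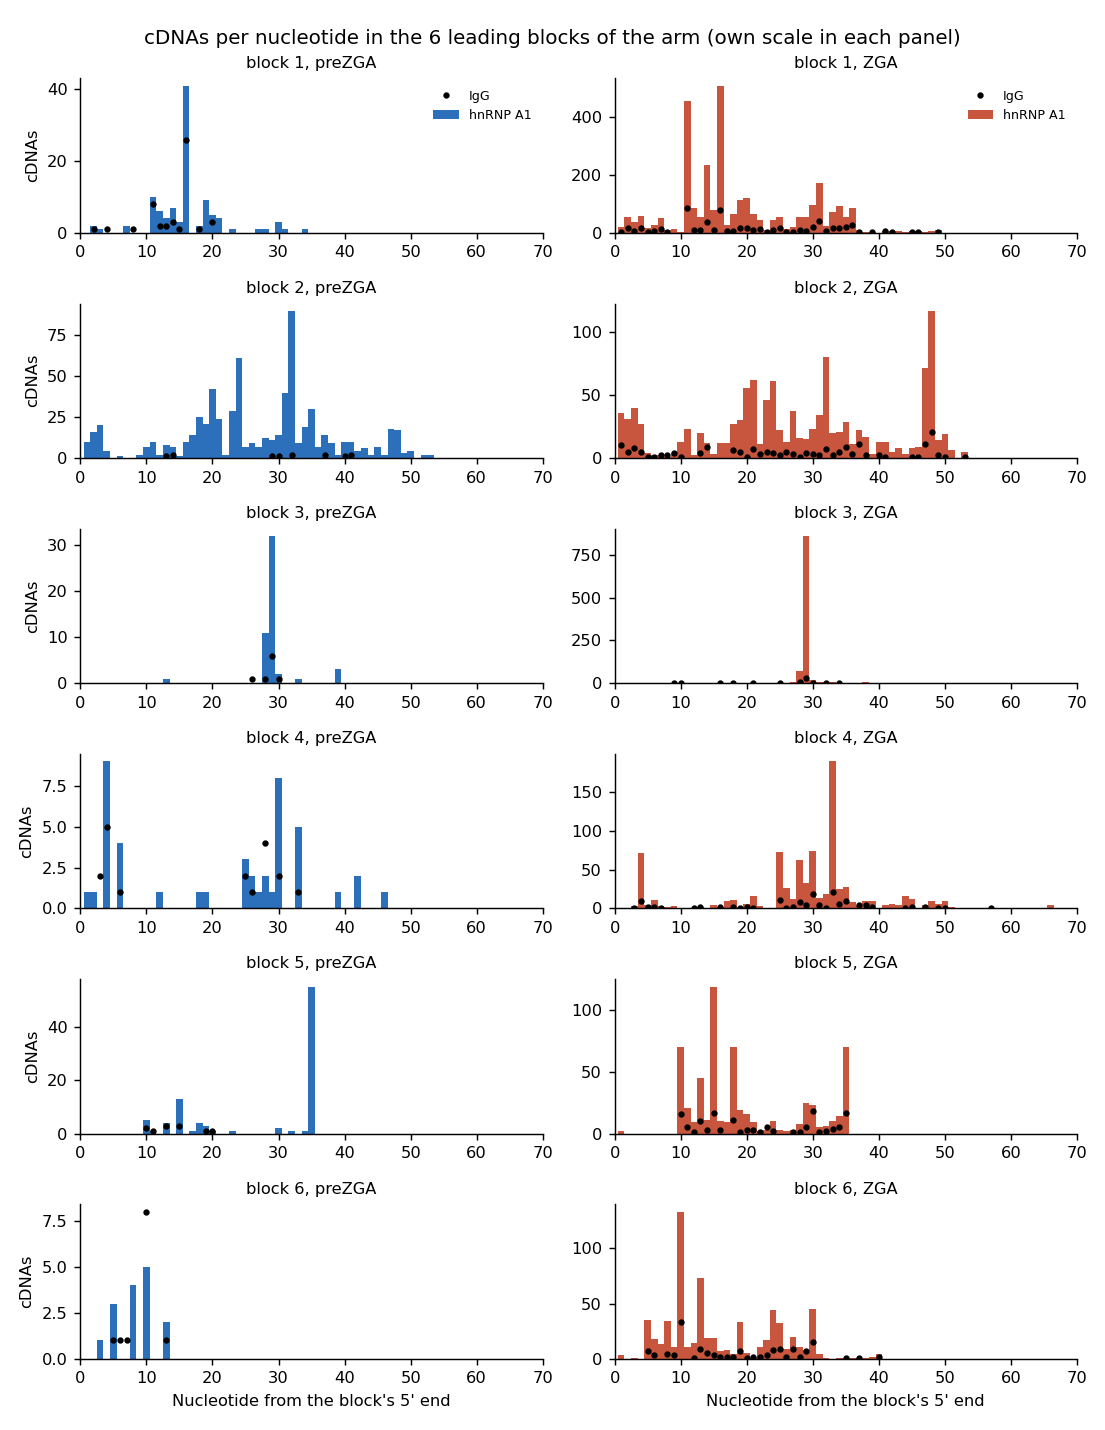
cDNAs per nucleotide (y axis, own scale in each panel) against the nucleotide from the block's 5′ end (x axis) in the 6 blocks of the arm with the most hnRNP A1 cDNAs over both stages, preZGA on the left and ZGA on the right, with hnRNP A1 as bars and IgG as points. Within each stage the highest bar and the highest IgG point fall on 1 nucleotide in blocks 3, 4 and 6, and between the stages the strongest hnRNP A1 nucleotide stays in blocks 1, 3 and 6 and moves in blocks 2, 4 and 5. Some of these rest on few cDNAs. At preZGA the strongest hnRNP A1 nucleotide held 9 of 44 in block 4 and 5 of 15 in block 6, and the strongest IgG nucleotide 5 and 8.

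cDNAs that match several places are kept in separate tables and gave another picture of the arm. Their hnRNP A1 tables placed 7889 cDNAs on the arm before activation (19.96%) and 14357 during it (21.26%). The share ratio was 1.07, against 7.83 with unique mapping. Each ratio refers to the totals of its own tables, and these moved in opposite directions. The multi-mapping total was higher at ZGA, while the unique total went from 583691 to 480927 cDNAs. The ratios are thus not on a common scale, and the 1.07 does not show an unchanged number of cDNAs. In the multi-mapping tables IgG equalled 2.77% of hnRNP A1 on the arm at preZGA and 5.36% at ZGA, against 12.8% and 15.3% with unique mapping. Of the 54 windows above, 15 also held multi-mapping hnRNP A1 cDNAs.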

How the data were processed

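The authors deposited, per the file headers, significant iCLIP crosslink sites of the summed libraries of each group, kept with a false discovery rate below 0.01, 100 permutations, a neighbourhood of 15 nt and regions treated separately, on Zv9 with Ensembl release 72. The submitters' processing notes name CASAVA 1.4. Aligner and duplicate removal are not given in the sources used here. The unit is other than a plain count: per the deposited values each nucleotide has a whole cDNA number (a fraction in multi-mapping tables) whose sign gives the strand, and its absolute value was used. Copies of a table under several libraries were counted once. Labels speak of 3 summed replicates, while the hnRNP A1 table at ZGA names 4 libraries.

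Shares refer to all listed cDNAs of a table. Intervals are exact conditional binomial for ratios and Clopper-Pearson for shares, at 95%. Totals hold only significant sites and are not library depths. Windows of 10 kb needed 100 hnRNP A1 cDNAs over both stages to be compared. Named windows of the arm were, per stage, the 10 with the most hnRNP A1 and the 5 with the most IgG cDNAs. Further ones were the 10 highest and 10 lowest ratios with intervals leaving out 1, the 10 leading windows without IgG, and per stage the 5 leading windows of 1 Mb. Members, windows and rules were chosen with earlier results of these data known. The blocks, the division at 58 Mb and the group of other nuclear sites were added after the values were seen. The code was tested on simulated counts. Calculations ran in Python 3.11.15 with scipy 1.17.1, pandas 2.3.3 and numpy 2.4.6, and plots were drawn with matplotlib 3.10.9.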

Additional observations from a re-analysis of the deposited data

How the results depend on the processing

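Alternatives were planned, except where named as added. Some of the planned ones, such as those on the left-out span and the leading windows, rest on values of these data. Each group was 1 pooled table, so leaving out a library was not possible. No paired analysis was possible because the replicate numbers of the libraries do not appear in the summed tables. The filter on significant sites limits what weak regions can show.

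The share ratio of hnRNP A1 on the arm, 7.83, stayed above 1 under all 12 alternatives. It was 8.36 with sites of at least 2 cDNAs, 4.88 by numbers of sites, 8.35 with a total without the 10 leading windows of the genome and 8.23 without the left-out span and the mitochondrial genome. It was 4.86 without hnRNP A1 sites within 15 nt of an IgG site of either stage, a filter that falls more on ZGA signal. It was 4.06 with multi-mapping cDNAs added and 1.71 with the left-out span put back. Without the arm's own 10 leading windows, an added alternative, it was 6.53. The IgG ratio of 3.67 was 4.48 with sites of at least 5 cDNAs, 2.58 by sites, 1.72 without the 10 leading windows in the total, 3.17 with multi mapping, 1.51 with the span and 2.31 without the chromosome 1 window (added).

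hnRNP A1 over IgG at preZGA, 7.84, was 9.14 with sites of at least 5 cDNAs, 6.84 by sites, 15.3 with multi mapping, 27.3 with the span and 11.8 without the arm's 10 leading windows (added). At ZGA, 6.53, it was 7.02 with sites of at least 2 cDNAs, 9.07 of at least 5, 3.66 by sites, 8.22 with multi mapping, 12.1 with the span and 7.57 without the 10 leading windows (added).

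The number of windows at least 2-fold higher, 50 of 54, fell to 7 of 10 without sites near IgG, where fewer windows reach the minimum. It was 108 of 132 with a minimum of 20 cDNAs. Over the genome 92 of 1759 and 790 of 5346 windows were higher under these 2 settings. The number at least 2-fold lower, 0, was 3 of 132 with a minimum of 20 and 2 of 85 with a minimum of 50. Over the genome 1340 of 5346 and 605 of 3068 were lower. By sites, the windows chosen by cDNAs were used. Scaled to the median of all windows (added), 50 were higher and 0 lower, against 204 and 160 of 1882 over the genome.

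The share of preZGA nucleotides listed at ZGA, 60.5%, was 73.0% and 91.0% with sites of at least 2 and 5 cDNAs at both stages. It was 35.6% without sites near IgG and 71.1% with the span. It was 70.6% within 1 nt and 81.9% within 15 nt. Of the alternatives run, 4 of 12 left the hnRNP A1 ratio within its counting error and 5 of 11 the IgG ratio. For the excess over IgG it was 3 of 8 at preZGA and 2 of 8 at ZGA, and for the shared nucleotides 2 of 8. The count of higher windows stayed within 1.5 times in 13 of 15. That of lower windows stayed at 0 in 13 of 15. None of the ratios crossed 1. The excess over IgG is between tables of very unlike totals and could hardly have done so. The window counts and the shared nucleotides were not scored for direction. Apart from what the settings change by construction, the cause of the shifts was not tested.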
